A study of Saccharomyces cerevisiae with 4 samples.

Results

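Large ribosomal subunit assembly factors are the proteins that fold, trim and ship the precursor of the 60S subunit of the yeast ribosome. A set of 58 genes was chosen by name, and probe sets were taken where the array's gene table gives 1 of these symbols alone. This found 57 genes and 59 probe sets. The remaining gene, MDN1, stands in that table as REA1, and its value is given apart. Of the 57, 51 were above the detection floor on all 4 arrays, out of 3923 measured genes in all. The floor was the 40th percentile of each array, between 15.9 and 28.2 intensity units. The other 6 are described near the end of the results.

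In yeast, ribosome assembly starts in the nucleolus on a long precursor RNA made by RNA polymerase I. Helicases, RNA-binding scaffolds, GTPases and an AAA-type ATPase remodel the particle in a set order, export adaptors carry it through the nuclear pore, and the last factors leave in the cytoplasm. The genes of this machinery are known as a regulon that growing cells express together and that many stresses turn down. Polysomal RNA is the RNA that sediments with several ribosomes, and sub-polysomal RNA carries few or none.

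The 4 groups were RNA from DTT-treated cells in the polysomal fraction, control cells in the polysomal fraction, DTT-treated cells in the sub-polysomal fraction and control cells in the sub-polysomal fraction. The treated cells took 2 mM dithiothreitol (DTT), a reductant that disturbs disulphide bonds in the endoplasmic reticulum, for 1 h, and the control cells took water. All 4 groups share strain BY4741 (MATa his3Δ1 leu2Δ0 met5Δ0 ura3Δ0, as labelled), growth in YEPD at 30 °C to an OD600 of 0.5, cycloheximide at 0.1 mg/mL, and 0.5 mM DTT in the lysis and gradient buffers. RNA from 3 gradients was joined for each group and hybridised to 1 Affymetrix YG_S98 array, so no group has a replicate, no difference could be tested, and this number of arrays limits the precision of every value. The labels' mating type was borne out by the a-type genes MFA1, MFA2, STE2 and BAR1, which were above the floor on all 4 arrays, while the alpha-type genes were at or under it on at least 3. LEU2, URA3 and MET17 were under the floor on every array, but MET5, which the labels list as deleted, read 96.7 to 184.5, and HIS3 was above the floor too.

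Values below are log2 differences between arrays, each centred on the median of its measured probe sets, so they are relative to that median. The only error at hand is the disagreement of probe sets that read 1 gene, with an SD of 0.41 for DTT against control in polysomal RNA and 0.45 in sub-polysomal RNA (161 genes, 397 probe sets). It does not cover cultures, extracts or hybridisations. In pooled RNA, fewer cells with a transcript and less transcript per cell cannot be told apart. KAR2, the chaperone gene that the unfolded protein response turns on, read 2286.5 with DTT and 1321.2 in control on the polysomal arrays, and 2068.2 and 1017.8 on the sub-polysomal arrays.

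The control sub-polysomal array stood apart. Its rank correlations with the other arrays were 0.885 to 0.920, against 0.922 to 0.959 among the others, and its 3' to 5' signal ratio for ACT1 was 2.49, against 1.48 to 1.91. Each array had a wash module and a scan of its own, so array handling and group cannot be told apart. The values of the control sub-polysomal array also followed the number in the probe-set IDs, which runs with the chromosomes, from a median of 4165 for genes of chromosome IX to 11345.5 for chromosome I. Probe sets numbered 4000 to 4999 had a median centred level of -0.57 on that array and those numbered 9000 to 9999 of 0.31. On the other 3 arrays such medians lay between -0.25 and 0.17. The all-gene median of DTT against control in sub-polysomal RNA was 0.44 in the first of these number ranges and -0.45 in the second, and in polysomal RNA 0.19 and -0.15. An alternative chosen after the data were seen took a running median by number, over 100 probe sets on each side, off every array. Its values are given where it ended a 2-fold call of an assembly factor gene or moved a count over all measured assembly factor genes. Counts within the smaller role lists are given for some lists only.

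In polysomal RNA every one of the 51 measured assembly factor genes was lower with DTT than in control. Their median was -1.06 on the log2 scale (2.09-fold lower), against -0.10 for all measured genes. Of the 51, 28 were at least 2-fold lower and 0 at least 2-fold higher. Among all measured genes 7.04% were at least 2-fold lower in that comparison, 4.33% at least 2-fold higher and 57.8% below 0. With the running median taken off, 31 were at least 2-fold lower, 24 of them among the first 28, where 6.3% of all measured genes were. DBP7, MAK16, MTR4 and NOC3 were then under 2-fold, at -0.91, -0.995, -0.96 and -0.84. CGR1, CIC1, DBP3, IPI1, NSA1, RIX1 and RPF1 passed 2-fold. The polysomal comparison does not use the control sub-polysomal array. The count depends on where the limit lies, since many genes sit close to 2-fold: it was 46 at 1.5-fold and 7 at 3-fold. It was also 17 when arrays were scaled to 9 hybridisation control probe sets, which raised the all-gene median to 0.14.

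In sub-polysomal RNA 43 of the 51 were below 0 with DTT, where 62.3% of all measured genes were, with a median of -0.88 against -0.20 for all genes. The same 43 were below 0 in both fractions, as were 48.8% of all genes. There 20 were at least 2-fold lower and 0 at least 2-fold higher, where 11.1% and 5.68% of all measured genes were. With the running median taken off, the median was -0.76 and the count fell to 10, of which 9 were among the 20. The share of all measured genes at least 2-fold lower fell as well, to 6.91%. BRX1, DBP7, ERB1, HAS1, MRT4, RLP24, RPF2, RSA3, RSA4, SPB1 and YTM1 were then under 2-fold, and CIC1 passed it. RSA3 and RSA4 each stood at -0.92 and SPB1 at -0.98. Set against 2-fold in both fractions, 17 assembly factor genes were lower and 0 higher, beside 4.61% and 2.83% of all measured genes. That count of lower genes was 8 after the running median was taken off, beside 3.21% of all measured genes. The 2 settings had 7 genes in common: ALB1, DBP10, DRS1, MAK21, MAK5, NOP13 and SDA1. The sub-polysomal count thus depends on whether the running median is taken off, and no alternative treated the control sub-polysomal array alone.

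**Figure D1:**
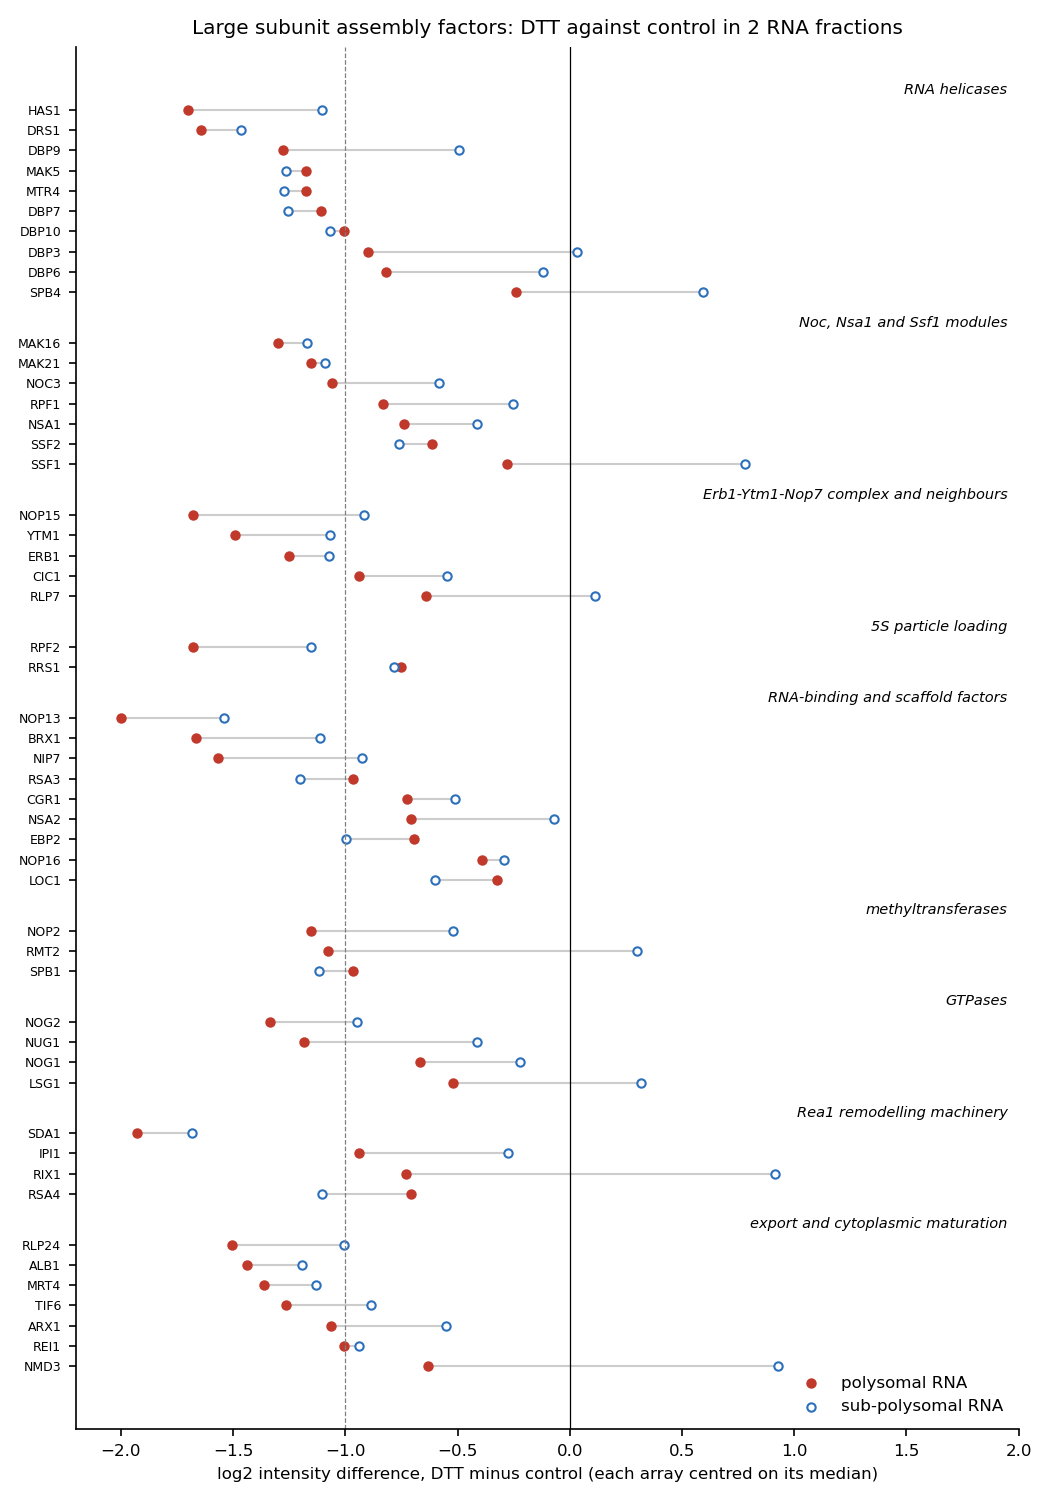
Log2 difference of DTT minus control for the 51 measured assembly factor genes, grouped by role, in polysomal RNA (filled) and sub-polysomal RNA (open); the dashed line marks 2-fold lower. All 51 filled points lie below 0, while 8 open points lie above it.

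The RNA helicases, which unwind the precursor RNA and let factors on and off, had a polysomal median of -1.14, with 7 of 10 at least 2-fold lower, and a sub-polysomal median of -1.09, with 6 of 10. These counts were 6 and 4 with the running median taken off. Of all measured genes 7.04% were at least 2-fold lower in polysomal and 11.1% in sub-polysomal RNA. Those shares were 6.3% and 6.91% with the running median taken off, and they stand beside the counts of the other role lists too. HAS1, a helicase of both subunits' precursors, read 39.3 on the DTT polysomal array against 125.3 on the control polysomal array, and 63.9 against 128.2 in sub-polysomal RNA. DRS1, which acts in nucleolar 60S precursors, read 23.2 with DTT against 70.9 in control in polysomal RNA, and 31.0 against 79.7 in sub-polysomal RNA. These are 3.26-fold and 3.12-fold lower levels on the polysomal arrays. In sub-polysomal RNA HAS1 stood at -0.76 and DRS1 at -1.14 once the running median was taken off. The helicase gene MTR4, whose product feeds precursor RNA to the exosome, read 39.9 with DTT and 88.1 in control in polysomal RNA, and 59.8 and 134.7 in sub-polysomal RNA.

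MAK5, DBP7 and DBP10 were also at least 2-fold lower in each fraction. DBP7 was under 2-fold in both, at -0.91 and -0.92, and MTR4 in polysomal RNA, at -0.96, after the running median was taken off. MAK5 read 18.0 with DTT against 39.8 in control on the polysomal arrays, the DTT value close to the floor, and 31.5 against 70.6 on the sub-polysomal arrays. DBP7 read 24.6 against 52.0 in polysomal and 67.8 against 150.7 in sub-polysomal RNA, in the order DTT, control. DBP10 stood just past the limit, with 38.8 with DTT against 76.2 in control in polysomal RNA and 46.5 against 90.8 in sub-polysomal RNA. At the other end SPB4, a helicase of late nucleolar particles, had a polysomal difference of -0.24 (74.6 with DTT, 86.2 in control), within the SD of 0.41, and was brighter with DTT in sub-polysomal RNA (186.1 against 115.1). DBP9, DBP3 and DBP6 lay between, at -1.28, -0.90 and -0.82 in polysomal RNA and -0.49, 0.03 and -0.12 in sub-polysomal RNA. The change between fractions among the 10 helicase genes ran from -0.93 for DBP3 to 0.14 for DBP7.

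Nucleolar scaffold modules made up the next list. The Noc proteins escort the earliest 60S precursors, and Rpf1, Mak16 and Nsa1 belong to a further module. In this list 3 of 7 measured genes were at least 2-fold lower in polysomal and 2 in sub-polysomal RNA. MAK16 read 22.7 on the DTT polysomal array against 54.8 on the control polysomal array, and 23.7 against 49.7 in sub-polysomal RNA. The DTT sub-polysomal value of MAK16 was close to the floor of 22.6. Its polysomal difference was just under 2-fold with the running median taken off. MAK21, the gene of Noc1, read 36.6 with DTT and 79.8 in control in polysomal RNA, and 52.7 and 104.6 in sub-polysomal RNA. NOC3, RPF1 and NSA1 had polysomal differences of -1.06, -0.83 and -0.74. SSF1 was the exception of the list: 43.3 with DTT and 51.4 in control in polysomal RNA, but 130.1 and 70.5 in sub-polysomal RNA. Its near-identical copy SSF2 was read by a probe set whose ID marks probes that may match other transcripts (19.5 and 29.2 in polysomal RNA, 25.9 and 40.9 in sub-polysomal RNA), so the copies' signals may mix.

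Erb1, Ytm1 and Nop7 form a trimer that waits on the precursor until Rea1 pulls Ytm1 off. ERB1 read 154.7 on the DTT polysomal array against 360.2 on the control polysomal array, and 382.5 against 750.4 in sub-polysomal RNA. YTM1 read 93.1 with DTT and 256.0 in control in polysomal RNA, and 198.3 and 387.1 in sub-polysomal RNA. Both partners were at least 2-fold lower in each fraction, with log2 differences of -1.25 and -1.07 for ERB1 and -1.49 and -1.07 for YTM1. The sub-polysomal values were -0.75 for ERB1 and -0.79 for YTM1, both under 2-fold, after the running median was taken off. NOP15, which binds the internal spacer close by, was 3.20-fold lower in polysomal RNA (63.0 against 197.5) and 1.89-fold lower in sub-polysomal RNA (133.2 against 234.6). CIC1 had -0.94 and -0.55, and with the running median taken off -1.26 and -1.22. RLP7, a relative of a ribosomal protein, had the smallest polysomal difference of the list (64.8 with DTT, 99.0 in control), and in sub-polysomal RNA it read 121.6 with DTT and 104.9 in control.

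Rpf2 and Rrs1 bring the 5S ribosomal RNA and its proteins into the particle as a pair. RPF2 read 95.5 with DTT against 299.5 in control in polysomal RNA, and 111.8 against 231.5 in sub-polysomal RNA. RRS1 read 32.3 against 53.3 and 65.9 against 105.8. The partners had log2 differences of -1.68 and -0.75 in polysomal RNA. RPF2 stood at -0.76 in sub-polysomal RNA with the running median taken off, under 2-fold. With no replicate array, that gap is 2 measurements set side by side and was not tested.

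RNA-binding and scaffold proteins ranged widely in polysomal RNA, down from -0.32 for LOC1. NOP13, a nucleolar protein with RNA recognition motifs, was the lowest of all 51 in polysomal RNA, at 45.7 with DTT and 178.9 in control (4.00-fold lower). In sub-polysomal RNA it read 82.6 with DTT and 224.3 in control (2.91-fold lower). BRX1, of the Brix family of 60S factors, read 68.0 against 210.9 in polysomal RNA and 85.9 against 173.4 in sub-polysomal RNA. After the running median was taken off, NOP13 had -1.69 in polysomal RNA, where SDA1 at -2.06 was then the lowest of the 51, and BRX1 had -0.74 in sub-polysomal RNA. NIP7, which also takes part in precursor processing, was 2.96-fold lower in polysomal RNA (25.8 with DTT, 74.8 in control) and 1.90-fold lower in sub-polysomal RNA. The other 6 measured genes of the list, RSA3, CGR1, NSA2, EBP2, NOP16 and LOC1, had polysomal differences from -0.96 to -0.32, so 3 of 9 passed 2-fold. With the running median taken off 4 of 9 did, CGR1 (-1.02) among them. EBP2, needed for early precursor processing, read 49.9 with DTT and 79.1 in control in polysomal RNA, and 86.7 and 161.2 in sub-polysomal RNA. LOC1, also known for its part in localising ASH1 mRNA, was the highest of them, with 55.3 with DTT and 67.8 in control in polysomal RNA and 58.2 and 82.3 in sub-polysomal RNA.

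**Figure D2:**
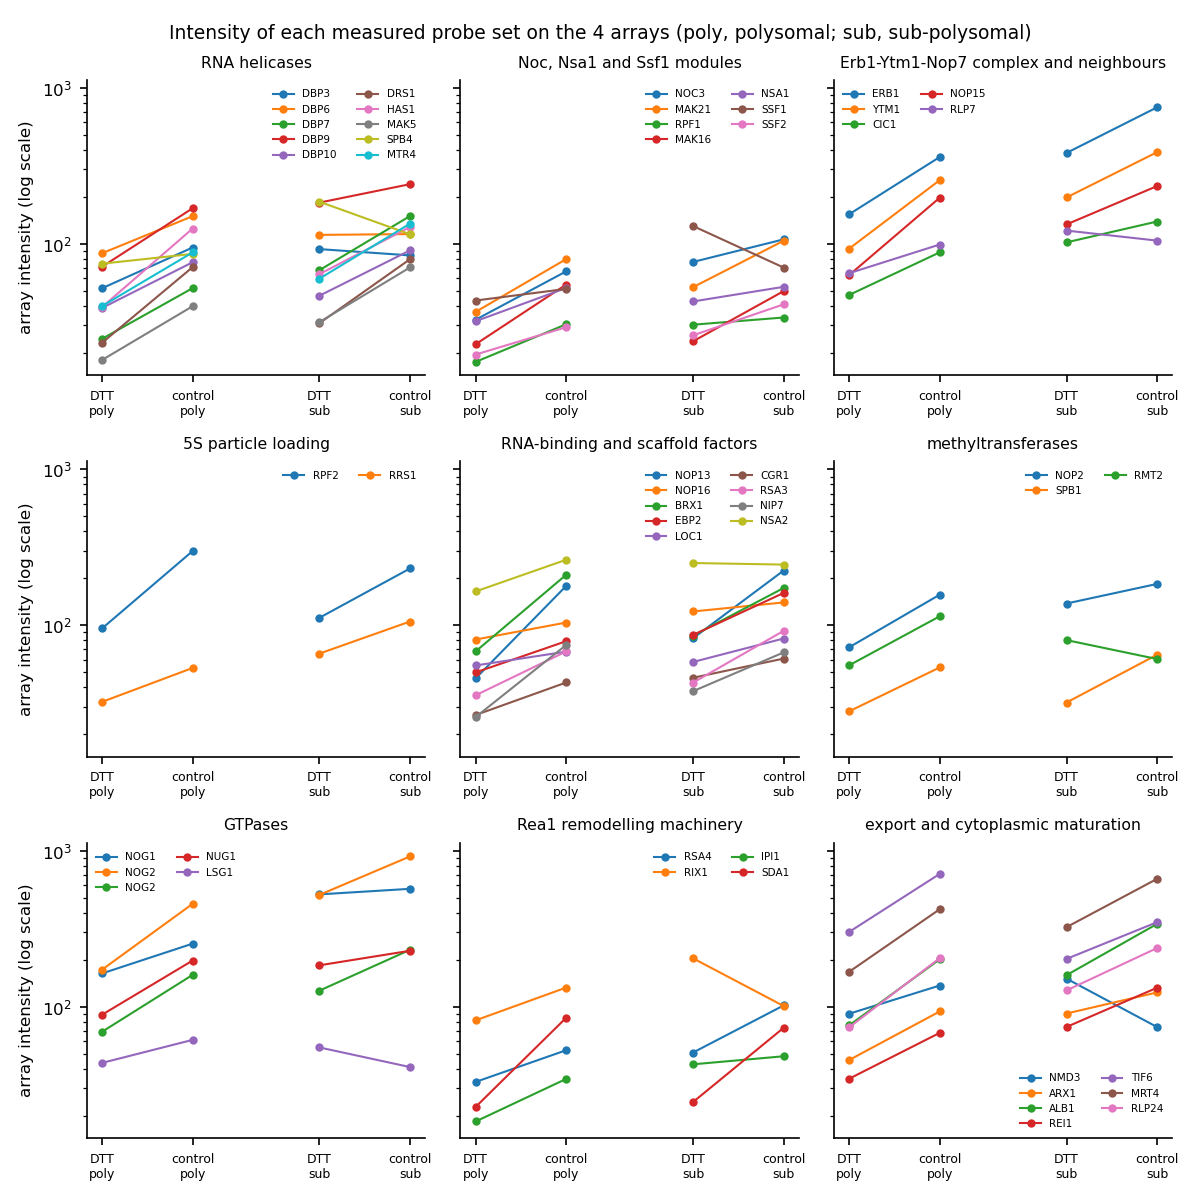
Deposited intensity (log scale) of each measured probe set on the 4 arrays, 1 panel for each role list, with DTT left of control in each fraction. On the polysomal arrays every DTT point lies under its control point, and on the sub-polysomal arrays RIX1, NMD3, SSF1, SPB4, RMT2, LSG1, RLP7, DBP3 and, slightly, NSA2 run the other way.

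The 3 methyltransferase genes lay close together in polysomal RNA and apart in sub-polysomal RNA. NOP2, which methylates a cytosine of the 25S ribosomal RNA, read 72.3 with DTT and 157.2 in control in polysomal RNA, and 138.0 and 184.3 in sub-polysomal RNA. SPB1, which methylates a ribose near the catalytic centre, read 28.1 and 53.7, and 32.0 and 64.8. RMT2, the arginine methyltransferase of a large subunit protein, read 55.4 with DTT against 114.3 in control in polysomal RNA. In sub-polysomal RNA it read 80.4 with DTT against 60.8 in control. The 3 polysomal log2 differences were -1.15, -0.96 and -1.08, whereas the sub-polysomal ones spread from -1.12 to 0.30.

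Assembly GTPases act as checkpoints on the way from the nucleolus to the cytoplasm. NOG2 was read by 2 probe sets that agreed in sign: 173.1 with DTT against 457.6 in control and 69.2 against 160.3 in polysomal RNA, with a gene value of -1.34. In sub-polysomal RNA these probe sets read 522.1 against 921.2 and 127.0 against 232.1, with a gene value of -0.95. NUG1 had a polysomal difference of -1.18 and NOG1, whose product plugs the exit tunnel of the maturing particle, of -0.67. LSG1, the cytoplasmic GTPase that frees the export adaptor Nmd3, had the smallest difference, with 43.7 with DTT and 61.4 in control in polysomal RNA and 54.9 and 41.1 in sub-polysomal RNA. None of these 4 was 2-fold lower in sub-polysomal RNA.

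Rea1 (Mdn1) is the AAA-type ATPase that strips factors from the particle, with Rsa4 as its anchor and the Rix1, Ipi1 and Ipi3 complex beside it. Under the name REA1 the gene read 53.8 with DTT and 128.4 in control in polysomal RNA, and 34.6 and 103.8 in sub-polysomal RNA, differences of -1.29 and -1.69. SDA1, a nuclear factor of the same late particles, read 22.8 on the DTT polysomal array against 85.1 on the control polysomal array, and 24.5 against 73.3 in sub-polysomal RNA. It was 3.81-fold and 3.21-fold lower and the lowest of all 51 in sub-polysomal RNA, where its DTT value was close to the floor of 22.6. RSA4 had -0.71 in polysomal and -1.10 in sub-polysomal RNA (33.0 with DTT and 52.7 in control in polysomal RNA, 50.9 and 102.0 in sub-polysomal RNA). RIX1 went against its partners in sub-polysomal RNA, with 204.7 with DTT against 101.3 in control, while in polysomal RNA it read 81.9 with DTT against 132.9 in control. IPI1 had -0.94 and -0.27. With the running median taken off, RIX1 had -1.02 in polysomal and 0.18 in sub-polysomal RNA, and IPI1 had -1.28 and -0.96.

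Export and cytoplasmic maturation factors had a polysomal median of -1.27, and with 6 of 7 at least 2-fold lower the highest such share of the 9 role lists. RLP24, a placeholder for a ribosomal protein that is swapped in the cytoplasm, read 73.9 on the DTT polysomal array against 205.3 on the control polysomal array, and 127.4 against 238.2 in sub-polysomal RNA. ALB1, the partner of the export factor Arx1, read 76.0 with DTT and 201.8 in control in polysomal RNA, and 159.6 and 340.1 in sub-polysomal RNA. MRT4, the placeholder for the stalk protein P0, read 167.7 and 422.4, and 324.2 and 661.5. These 3 were at least 2-fold lower in each fraction, RLP24 by 2.01-fold only in sub-polysomal RNA. RLP24 (-0.65) and MRT4 (-0.93) were under 2-fold in sub-polysomal RNA after the running median was taken off, and ALB1 alone of the 3 was then lower by 2-fold in both. TIF6, which keeps the subunits from joining, read 302.2 with DTT against 711.8 in control in polysomal RNA, and 202.9 against 349.1 in sub-polysomal RNA. ARX1 and REI1 had polysomal differences of -1.06 and -1.01, and the probe set of REI1 also carries a suffix for possible matches elsewhere. NMD3, the adaptor that ties the particle to the export receptor, read 90.3 with DTT and 137.0 in control in polysomal RNA, but 151.6 and 74.2 in sub-polysomal RNA.

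The polysomal to sub-polysomal ratio sets a transcript's level in 1 fraction against the other, each relative to the median of its array. It does not give the share of a transcript that sits on polysomes. In DTT-treated cells its log2 median over the 51 genes was -0.55, and in control cells -0.16, against 0.08 and -0.03 for all measured genes. The ratio was below 0 for 45 and above it for 6 of the 51 with DTT, and for 33 and 18 in control cells. Above 0 were 54.5% of all genes with DTT and 48.5% in control cells. With DTT the centred polysomal level was at least 2-fold under the sub-polysomal one for 7 of the 51, from -1.44 to -1.06. These were NOG1, SSF1, DBP7, DBP9, RIX1, SPB4 and ERB1. It was at least 2-fold higher for 0, and for all genes these shares were 3.8% and 4.79%. The lower count was 17 with no centring and 1 with hybridisation control scaling, beside 8.56% and 1.05% of all genes. With the running median taken off it was 8, with REI1 (-1.04) added, beside 3.7% of all genes. In control cells 1 was at least 2-fold lower, DBP7 at -1.36, beside 6.5% of all genes. There 3 were at least 2-fold higher, TIF6 (1.20), RMT2 (1.08) and NMD3 (1.05), beside 7.11% of all genes. TIF6 kept the highest ratio in DTT-treated cells too, at 0.82. With the running median taken off, TIF6 (1.33) alone stayed at least 2-fold higher in control cells, beside 6.98% of all genes. RMT2 was then at 0.90 and NMD3 at 0.69. The SD between probe sets of a gene was 0.32 for the ratio in DTT-treated cells and 0.41 in control cells. The ratio in DTT-treated cells does not use the control sub-polysomal array.

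The change in polysome association sets the ratio with DTT against that in control, and it equals the polysomal minus the sub-polysomal value above, from the same 4 arrays. Its median was -0.42 over the 51 genes and 0.08 over all measured genes, with 40 of 51 below 0 where 43.2% of all genes were. At least 2-fold lower were 4 of 51, RIX1 (-1.64), NMD3 (-1.56), RMT2 (-1.38) and SSF1 (-1.06), and 0 were at least 2-fold higher, against 1.45% and 1.99% of all genes. The highest were RSA4 (0.40), EBP2 (0.30) and LOC1 (0.28), inside the SD of 0.43 between probe sets of a gene. With the running median taken off, the median was -0.44 and 39 were below 0. RIX1, NMD3 and RMT2 then stood at -1.20, -1.28 and -1.21, SSF1 at -0.77, and DBP9 (-1.03) and, just at the limit, NOP2 joined them. Among all genes 1.43% were then at least 2-fold lower. The list median was -0.23 with quantile scaling and -0.25 with hybridisation control scaling, with 36 of 51 below 0 in each, where the all-gene medians were 0.05 and 0.25.

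**Figure D3:**
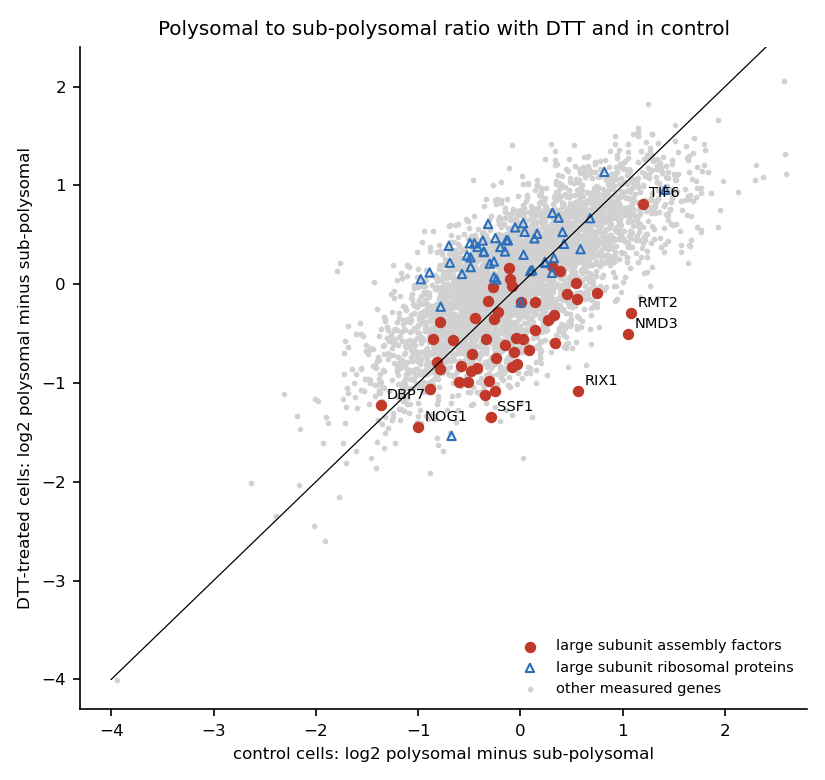
Log2 polysomal minus sub-polysomal value in DTT-treated cells (vertical) against control cells (horizontal) for each measured gene; the line marks equal ratios. Of the 51 assembly factors (filled circles) 40 lie below the line, while 37 of 47 large subunit ribosomal protein genes (triangles) lie above it.

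Related gene lists help to place these values, although no difference between lists could be tested with 1 array per group. Other large subunit factors that were not among the 58 had medians of -0.72 in polysomal and -0.69 in sub-polysomal RNA, with 11 and 7 of 25 at least 2-fold lower and 0 at least 2-fold higher. Small subunit assembly factors had -0.82 and -0.74, with 19 and 17 of 50 at least 2-fold lower and 0 higher. RNA polymerase I subunits and factors, which make the precursor RNA, had -0.95 and -0.94, with 6 of 13 lower in each. Large subunit ribosomal protein genes had -0.45 in polysomal and -0.88 in sub-polysomal RNA, with 2 and 20 of 47 at least 2-fold lower. Of all measured genes 7.04% were at least 2-fold lower in polysomal RNA and 11.1% in sub-polysomal RNA. The sub-polysomal counts after the running median was taken off were 5 of 25 other large subunit factors and 11 of 50 small subunit factors. They were 3 of 13 RNA polymerase I genes and 15 of 47 ribosomal protein genes, beside 6.91% of all measured genes. The polysomal counts in that setting were 9 of 25, 18 of 50, 5 of 13 and 1 of 47 in the same order, beside 6.3% of all measured genes. Many ribosomal protein genes occur in near-identical pairs, so a probe set that names 1 gene may still read its copy.

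In the change in polysome association the assembly factors had a median of -0.42, and large subunit ribosomal protein genes had 0.49, with 37 of 47 above 0. Taking the running median off gave -0.44 and 0.42. Quantile scaling moved the assembly factor median to -0.23, and the ribosomal protein list was not read under that or the other scalings. The control sub-polysomal array held 32.8% of its signal in its 100 brightest probe sets, against 20.0% to 26.0% on the other arrays. The part of this in the contrast between the lists was not tested. In DTT-treated cells the assembly factors had a median log2 ratio of -0.55 and the ribosomal protein genes of 0.33, and in control cells -0.16 and -0.15. Small subunit assembly factors had a change of -0.22, other large subunit factors of -0.08 and RNA polymerase I genes of -0.26. After the running median was taken off these were -0.19, -0.26 and -0.20, so the other large subunit factors then stood nearer to the assembly factors.

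**Figure D4:**
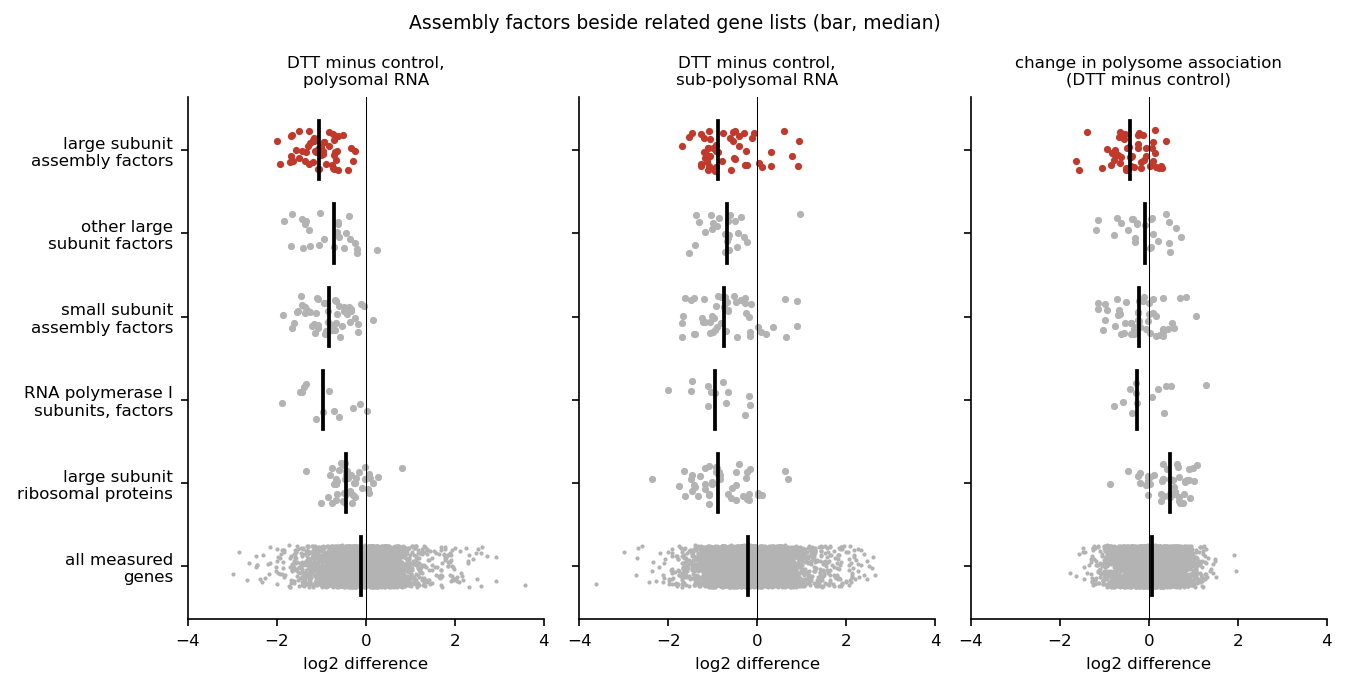
Log2 differences for the assembly factors (51 genes, top), 4 comparison lists and all measured genes, with 1 point for each gene and a bar at the median; point height within a row carries no meaning. In polysomal RNA the assembly factors have a median of -1.06 and the ribosomal protein genes of -0.45, and in the change in polysome association -0.42 and 0.49.

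The 8 genes above 0 in sub-polysomal RNA were NMD3 (0.93), RIX1 (0.91), SSF1 (0.78), SPB4 (0.59), LSG1 (0.32), RMT2 (0.30), RLP7 (0.11) and DBP3 (0.03). All but RLP7 have probe-set numbers between 4311 and 6025, and 3 each lie in the ranges 4000 to 4999 and 5000 to 5999, where the all-gene medians were 0.44 and 0.17. With the running median taken off, NMD3 stood at 0.28, RIX1 at 0.18, SSF1 at 0.19, SPB4 at 0.36, RLP7 at 0.39 and RMT2 at 0.07, while LSG1 and DBP3 were at -0.11 and -0.42. All of them lie within the SD of 0.45 between probe sets of a gene. For 3 of the 8 a gene that adjoins them in the genome, looked up after these values were seen, is on the comparison lists and had the same signs. NMD3 adjoins the helicase gene DBP8 (0.35 in sub-polysomal RNA), RIX1 adjoins the small subunit factor gene UTP9 (0.64), and SSF1 is divergent from the helicase gene RRP3 (0.88). In polysomal RNA those 3 neighbours had -0.60, -0.50 and -0.25. Neighbours also have neighbouring probe-set numbers, and the part of either in these values was not tested.

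Of the assembly factor genes, NOG2 adjoins ESF2, RSA3 adjoins UTP13, NOC3 adjoins CMS1 and NSA2 is divergent from LCP5, all small subunit factor genes. Their polysomal log2 differences were -1.34 and -1.06, -0.96 and -1.07, -1.06 and -0.66, and -0.71 and -0.49, with the large subunit gene named first in each pair. The sub-polysomal differences were -0.95 and -1.07, -1.20 and -0.35, -0.58 and -0.27, and -0.07 and -0.14. Pairs with an assembly factor above 0 in sub-polysomal RNA were set out before, so the assembly factors of these 4 were below 0 by that split. Below 0 in both fractions were 43 of the 51 assembly factors, 41 of 50 small subunit factors and 48.8% of all genes. The 4 small subunit factor genes here were too, which is no result about neighbours.

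**Figure D5:**
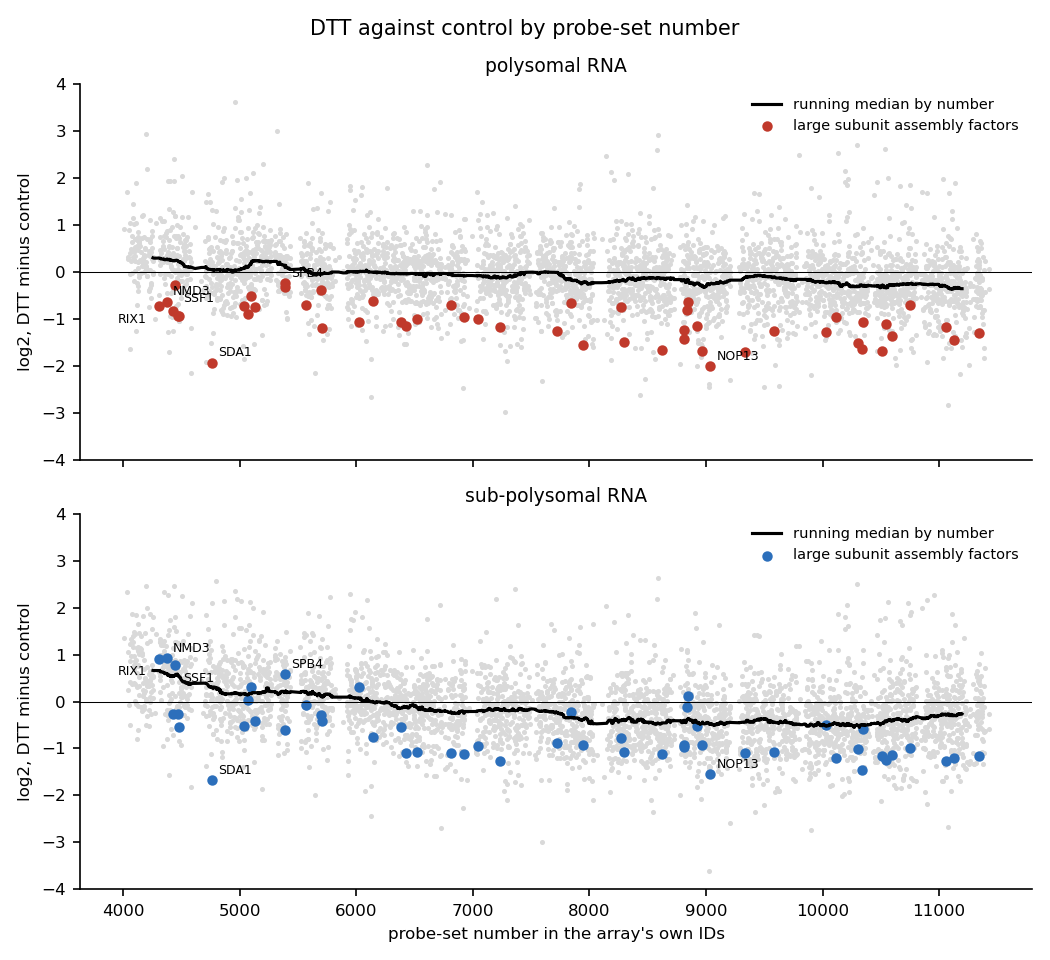
Log2 DTT minus control for measured probe sets by the number in their IDs, in polysomal RNA (top) and sub-polysomal RNA (bottom), with the assembly factors coloured and a running median by number in black. The line lies above 0 at low numbers and below 0 at high numbers, more steeply in sub-polysomal RNA, and NMD3, RIX1 and SSF1 sit at its high end.

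The 6 genes not above the floor on every array were NOP7, NOC2, NOP4, PUF6, IPI3 and NOP12, and none of them entered the counts. NOP7, the partner of Erb1 and Ytm1, read 18.6 with DTT and 53.9 in control in polysomal RNA, and 16.9 and 36.1 in sub-polysomal RNA, with the DTT sub-polysomal value under the floor of 22.6. NOC2, the partner of Mak21, read 18.6 and 31.5, and 20.0 and 51.8. NOP4, an RNA-binding protein of early particles, read 31.2 and 48.4, and 21.9 and 49.5. In each of these 3 genes the DTT arrays were dimmer in both fractions, and the 1 array under the floor was the DTT sub-polysomal one. IPI3 read 13.6 with DTT and 36.7 in control in polysomal RNA, and 39.9 and 98.6 in sub-polysomal RNA. NOP12 read 12.9 and 16.7, and 29.4 and 37.9, and was under the floor on both polysomal arrays. PUF6, known also as a translational repressor of ASH1 mRNA, read 19.0 with DTT and 30.9 in control in polysomal RNA, but 41.6 and 25.4 in sub-polysomal RNA, the control value lying under the floor of 28.2. The second probe set of SSF2, at 3.8 to 10.4, was under the floor on all 4 arrays.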

How the data were processed

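The authors deposited 1 linear intensity for each of 9335 probe sets on each of 4 arrays (RNA of 3 gradients pooled, 5 µg labelled with biotin, per the labels' protocols). Their values are scaled per array to a trimmed mean of about 100.1 intensity units. Probes were summarised by an algorithm not given in the sources used here. Run sheets were read for chip type, wash and scan only. All 4 columns belong to a sample.

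Probe sets were named through the platform's gene table (6504 name 1 gene, 328 several, 2503 none, of which 60 are controls), and all 6504 symbols matched the gene table of assembly R64 by gene ID. Measured probe sets lay above the 40th percentile on every array (4720 besides controls). Log2 intensities were centred on each array's median, and measured probe sets were averaged per gene. Groups follow the titles. With 1 array per group no p-value was computed; genes were counted past 2-fold. Steps ran in Python 3.11.15 with numpy 2.4.6 and pandas 2.3.3, with limma 3.58.1 for quantile and cyclic loess scaling, and were tested on simulated data.

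Genes adjoining an assembly factor were looked up after values were seen, beside the rule below. The genes, their 9 role lists and the comparison lists were chosen with earlier results of these data known. Intensities on all 4 arrays were given for genes at least 2-fold lower in both fractions, the lowest and highest of each role list in polysomal RNA, the extremes of polysome association and genes under a floor. A planned search for promoter motifs was not run, since no promoter sequence was used here.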

Additional observations from a re-analysis of the deposited data

Results flagged for a closer look

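Some genes had a DTT difference of opposite sign in the 2 fractions, below 0 in polysomal RNA and above 0 in sub-polysomal RNA. With 1 array per group that difference was not tested. They were 8 of 51 assembly factor genes. The polysomal minus sub-polysomal difference was -1.64 for RIX1, -1.56 for NMD3, -1.38 for RMT2, -1.06 for SSF1, -0.93 for DBP3, -0.84 for LSG1, -0.83 for SPB4 and -0.75 for RLP7. With the running median over probe-set number taken off, 6 of these 8 kept opposite signs, DBP3 and LSG1 were below 0 in both fractions, and DBP6 and NOG1 took opposite signs (0.18 and 0.06 in sub-polysomal RNA), so the count was again 8 of 51. All 8 use the control sub-polysomal array, whose 3' to 5' signal ratio for ACT1 was 2.49, against 1.48 to 1.91 on the other 3 arrays, and the part of that array in them was not tested.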

How the results depend on the processing

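No paired analysis was possible because each group holds 1 array. In polysomal RNA all measured assembly factor genes were below 0 under each scaling, floor and probe-set choice tried, except SPB4 with hybridisation control scaling. All-gene medians moved by over 0.1 with hybridisation control scaling (polysomal to 0.14, ratio with DTT to 0.43, ratio in control to 0.15, change to 0.25). They did so with no floor (polysomal 0.0080, sub-polysomal -0.015, ratios 0.20 and 0.19), no centring (sub-polysomal -0.095, ratios -0.16 and -0.20) and cyclic loess (sub-polysomal -0.040). The reported medians were polysomal -0.10, sub-polysomal -0.20, ratios 0.08 (DTT) and -0.03 (control), and change 0.08. Polysomal 2-fold counts of lower genes were 16 of 28 genes when the floor was raised to the 60th percentile and 17 with hybridisation control scaling. The all-gene shares were then 6.57% and 4.18%. At 1.5-fold and 3-fold the counts were 46 and 7. No all-gene share was computed at these limits. With no floor all counts are of 57 genes, and with the higher floor of 28. Sub-polysomal counts were 10 with the higher floor, 9 with no floor, 10 with the running median and 1 at 3-fold. All-gene shares were 11.2% with the higher floor, 9.34% with no floor and 6.91% with the running median. Higher genes there numbered 3 with no floor, 2 with no centring, 1 with quantile and 1 with cyclic loess scaling, and 4 at 1.5-fold. Of all genes 11.2% were higher with no floor, 6.91% with no centring, 7.9% with quantile and 8.26% with cyclic loess scaling. Counts lower in both fractions were 9, 6, 10 and 8 with the higher floor, no floor, hybridisation control scaling and the running median. The all-gene shares were 4.52%, 3.78%, 2.93% and 3.21% in the same order. At 3-fold and 1.5-fold the counts were 1 and 28. In the ratio of fractions with DTT, lower counts were 4 with no floor, 17 with no centring and 1 with hybridisation controls. All-gene shares were then 5.73%, 8.56% and 1.05%. At 3-fold and 1.5-fold the counts were 0 and 23. Higher counts were 1 with no floor, with hybridisation controls and at 1.5-fold. Of all genes 8.84% were higher with no floor and 15.9% with hybridisation controls. The assembly factor median was -0.20 with hybridisation controls, -0.34 with no floor, -0.79 with no centring and -0.85 with the higher floor. In control cells lower counts were 3 with the higher floor, quantile and loess scaling, 4 with no centring, 0 at 3-fold and 9 at 1.5-fold. All-gene shares were 7.66% with the higher floor, 7.11% with quantile and 6.14% with loess scaling, and 10.6% with no centring. Higher counts there were 0 with the higher floor, 5 with no floor, 1 with no centring or the running median, and 0 at 3-fold. Of all genes 4.98% were higher with the higher floor, 15.9% with no floor, 4.56% with no centring and 6.98% with the running median. The control median turned to 0.17 with no floor and 0.022 with hybridisation controls. The change had 1 and 17 lower genes at 3-fold and 1.5-fold, and its median was -0.23 with quantile and -0.25 with hybridisation control scaling. The causes were not tested, beyond fewer or more genes passing a limit or floor. Quantile, loess and running median moved 2, 7 and 12 gene values past the probe-set SD and 253, 248 and 243 by less. Other settings mostly shift genes alike (51 values past it with hybridisation controls) or not at all. In all, 0 past 2-fold changed sign. Intensities near the floor (MAK5, SDA1) limit the precision of their differences. The promoter motif alternatives were not run.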
